A study of Ovis aries with 12 samples.

Results

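The genes described here are 7 markers of the pyramidal cells of hippocampal field CA2: RGS14, PCP4, AMIGO2, PTPN5, CACNG5, MAP3K15 and STARD5. They were chosen by symbol, as markers known mainly from rodents, with earlier results of these data known. All 7 were found among the 33609 genes of the count table, and all 7 were among the 17806 genes with counts high enough to be tested. RNA was sequenced from both poles of the hippocampus, dorsal and ventral, in adult ewes of the Ile-de-France breed that were under chronic stress or served as controls. The 4 groups, with 3 libraries each, were dorsal stress, dorsal control, ventral stress and ventral control. Each library was an equimolar pool of RNA from 2 ewes, and both regions came from the same 12 ewes, 6 per condition. The labels do not say what the chronic stress consisted of. The submitters abbreviate the dorsal samples as DG, and whether the dentate gyrus alone was taken is not stated.

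CA2 is a narrow field of pyramidal neurons between CA3 and CA1. In mice it is known for its part in social memory, for strong input from the hypothalamus, and for synapses of the inner dendrites that resist long-term potentiation. Several of its markers act on calcium or kinase signalling at those synapses. None of the 7 genes is restricted to CA2 in the whole brain: PCP4 is also expressed in Purkinje cells, striatum, thalamus and deep cortical layers, and PTPN5 is abundant in striatum. In libraries of whole tissue, fewer cells of a type and less RNA per cell cannot be told apart.

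The libraries of a group differed widely before any comparison. Library totals ran from 12254743 to 53775720 counts. By total alone, 1 CPM (a count scaled to the library's total) was 12.3 counts in the shallowest library and 53.8 in the deepest. The CPM printed below are also scaled by library factors (TMM) of 0.917 to 1.04. Differences within groups made up 73.0% of the variance of log2 CPM over all tested genes, and a single axis held 66.1% of that within-group variance. The libraries with the lowest score of their group on that axis were dorsal stress 1, dorsal control 1, ventral stress 2 and ventral control 1. Results are therefore also given without these 4 libraries where that changes a call. No label names a batch, so no within-batch value can be given.

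The 7 markers did not move together between the regions. RGS14 was higher and PCP4 was lower in dorsal than in ventral hippocampus, and the other 5 genes did not pass the test. With edgeR's quasi-likelihood test over both conditions, 2 of the 7 genes were called at an adjusted p under 0.05, 1 in each direction. Of all tested genes 4.51% were called, 1.44% as higher and 3.07% as lower in dorsal tissue. The median log2 fold change of the 7 genes was 0.05, against -0.02 over all tested genes.

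RGS14 encodes a scaffold that turns off G protein alpha subunits and binds Ras family proteins, and in mice it restrains synaptic potentiation in CA2. It had 434.7, 205.9 and 219.6 CPM in dorsal stress libraries 1 to 3 and 366.3, 284.3 and 236.7 CPM in dorsal control libraries 1 to 3. It had 108.8, 60.0 and 44.6 CPM in ventral stress libraries 1 to 3 and 77.6, 64.7 and 30.0 CPM in ventral control libraries 1 to 3. Every dorsal library lay above every ventral library, and library 1 was the highest of each group. The means were 286.8 ± 128.3 CPM in dorsal stress, 295.7 ± 65.6 in dorsal control, 71.1 ± 33.5 in ventral stress and 57.4 ± 24.6 in ventral control (SD, n = 3 each). Within a region the ranges of stress and control libraries overlapped, so these neighbours in the order of levels did not separate. The fitted difference between regions was 2.19 ± 0.32 on the log2 scale (SE), a 4.56-fold higher level in dorsal tissue with a 95% interval of 2.78 to 7.46 (edgeR, adjusted p = 0.00436). Without the 4 libraries named above it was 1.97 (edgeR, adjusted p = 0.0492).

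PCP4 encodes a small protein that speeds the exchange of calcium on calmodulin. It had 37.8, 23.3 and 23.4 CPM in dorsal stress libraries 1 to 3 and 35.0, 32.5 and 30.8 CPM in dorsal control libraries 1 to 3. It had 57.1, 154.6 and 73.4 CPM in ventral stress libraries 1 to 3 and 80.0, 149.2 and 76.9 CPM in ventral control libraries 1 to 3. Every dorsal library lay below every ventral library, and in each ventral group library 2 stood well above the other two. The means were 28.2 ± 8.34 CPM in dorsal stress, 32.8 ± 2.11 in dorsal control, 95.0 ± 52.2 in ventral stress and 102.0 ± 40.9 in ventral control (SD, n = 3 each). The fitted difference was -1.70 ± 0.28 on the log2 scale (SE), a 3.24-fold lower level in dorsal tissue (edgeR, adjusted p = 0.00732). RGS14 and PCP4 were thus the pair of markers whose 6 dorsal and 6 ventral libraries did not overlap, which was also true of 4.9% of all tested genes.

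**Figure D1:**
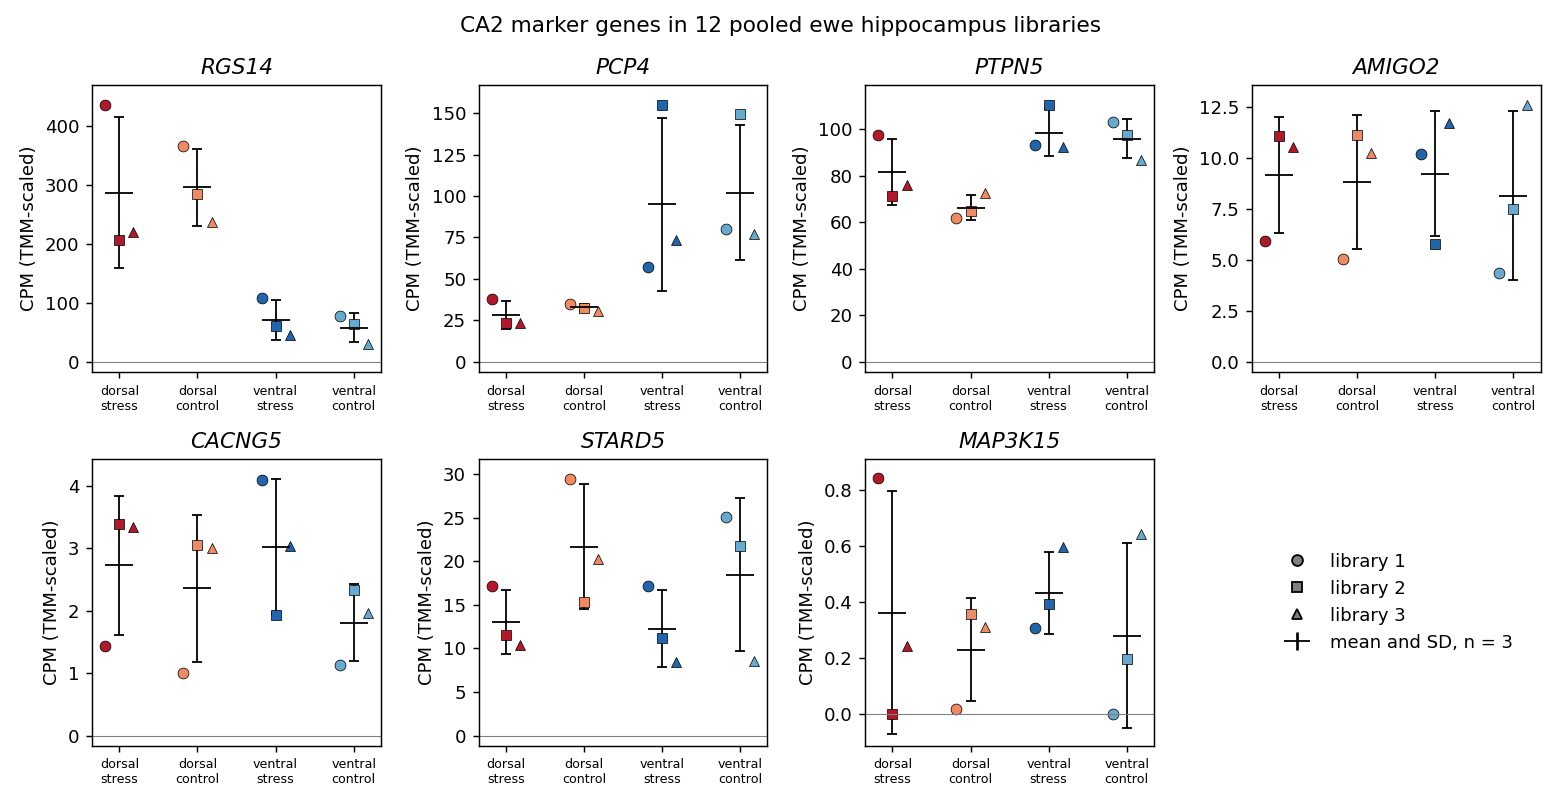
TMM-scaled CPM of each of the 7 genes in the 12 libraries, by group. Points are libraries, with the shape giving the library number, and bars are the mean and SD of 3 libraries. RGS14 was higher in all 6 dorsal libraries and PCP4 lower in all 6, while the groups of AMIGO2, CACNG5, STARD5 and MAP3K15 overlapped.

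PTPN5 encodes STEP, a tyrosine phosphatase of neurons that acts on ERK, Fyn and glutamate receptors. It had 97.8, 71.3 and 76.1 CPM in dorsal stress libraries 1 to 3 and 61.9, 64.8 and 72.5 CPM in dorsal control libraries 1 to 3. It had 93.3, 110.3 and 92.3 CPM in ventral stress libraries 1 to 3 and 103.4, 97.6 and 86.9 CPM in ventral control libraries 1 to 3. Dorsal stress 1 lay among the ventral libraries and the other 5 dorsal libraries lay below all of them. The fitted difference was -0.40 ± 0.12 on the log2 scale (SE), with a 95% interval of -0.67 to -0.13, and did not pass the threshold (edgeR, adjusted p = 0.104). DESeq2 called it, at -0.40 with an adjusted p of 0.0172, but called 8.75% of all tested genes, against 4.51% with edgeR.

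AMIGO2, which encodes an adhesion protein with leucine-rich repeats, gave nearly equal levels in the regions. It had 5.92, 11.1 and 10.5 CPM in dorsal stress libraries 1 to 3 and 5.06, 11.1 and 10.3 CPM in dorsal control libraries 1 to 3. It had 10.2, 5.81 and 11.7 CPM in ventral stress libraries 1 to 3 and 4.37, 7.49 and 12.6 CPM in ventral control libraries 1 to 3. The 4 lowest values of the 12 were in the 4 libraries that score lowest on the within-group axis. The fitted difference was 0.05 ± 0.32 on the log2 scale (SE), with a 95% interval of -0.66 to 0.76.

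CACNG5 encodes a transmembrane protein that accompanies AMPA receptors. It had 1.44, 3.39 and 3.35 CPM in dorsal stress libraries 1 to 3 and 1.00, 3.06 and 3.01 CPM in dorsal control libraries 1 to 3. It had 4.10, 1.94 and 3.04 CPM in ventral stress libraries 1 to 3 and 1.13, 2.33 and 1.96 CPM in ventral control libraries 1 to 3. The lowest library of each group was again the one that scored lowest on the axis. Its difference between regions was 0.12 ± 0.37 on the log2 scale (SE), with a 95% interval of -0.70 to 0.93.

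STARD5 encodes a carrier that binds sterols in the cytosol. It had 17.2, 11.5 and 10.4 CPM in dorsal stress libraries 1 to 3 and 29.4, 15.4 and 20.3 CPM in dorsal control libraries 1 to 3. It had 17.2, 11.2 and 8.49 CPM in ventral stress libraries 1 to 3 and 25.2, 21.7 and 8.59 CPM in ventral control libraries 1 to 3. Library 1 was the highest of each group, as for RGS14. The difference between regions was 0.16 ± 0.30 on the log2 scale (SE), with a 95% interval of -0.51 to 0.82.

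MAP3K15 encodes ASK3, a kinase that responds to osmotic change. It had 17, 0 and 3 counts in dorsal stress libraries 1 to 3, 1, 16 and 8 in dorsal control, 8, 10 and 20 in ventral stress and 0, 4 and 23 in ventral control. With the limit of a count of 0 taken as 3 counts, it allowed up to 0.152 CPM in dorsal stress 2 and 0.0721 CPM in ventral control 1, from counting error alone. The fitted difference between regions was -0.28 ± 0.97 on the log2 scale (SE), and its 95% interval of -2.43 to 1.88 spans large changes in either direction. No difference of this gene was detectable with these counts and this spread between pools.

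The opposite differences of RGS14 and PCP4 could be read within each library, where depth and scaling cancel. The ratio of RGS14 counts to PCP4 counts was 11.5, 8.85 and 9.37 in dorsal stress libraries 1 to 3 and 10.5, 8.74 and 7.68 in dorsal control libraries 1 to 3. It was 1.91, 0.388 and 0.608 in ventral stress libraries 1 to 3 and 0.970, 0.434 and 0.390 in ventral control libraries 1 to 3. The dorsal ratios kept to a narrow band, and the ventral ones spread more widely. The regions did not overlap, which follows from the separation of both genes given above and is no further evidence. The ratio is not a ratio of transcript numbers, since the transcripts differ in length.

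**Figure D2:**
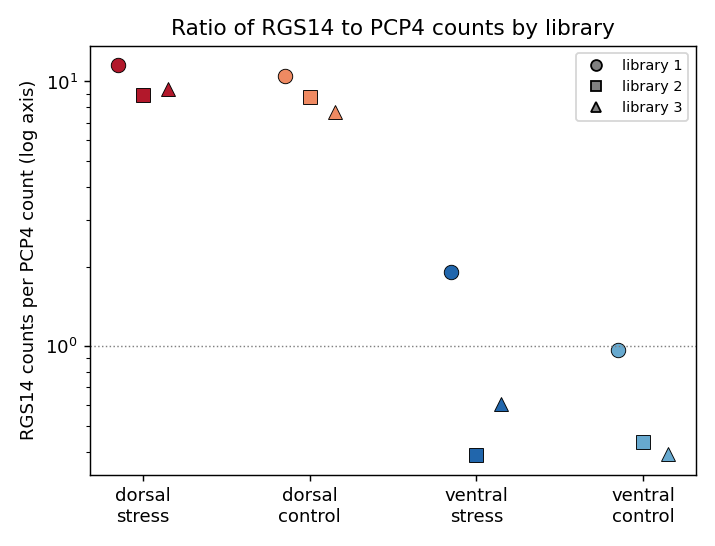
RGS14 counts per PCP4 count in each library, on a log axis, with the dotted line at equal counts. The 6 dorsal libraries sat between 7.68 and 11.5, and the 6 ventral libraries between 0.388 and 1.91.

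The regional differences of the same genes were then set side by side within stressed and within control ewes, where each region has 3 libraries. These fits hold no term for the replicate number. In stressed ewes RGS14 differed by 2.01 ± 0.45 (edgeR, adjusted p = 0.0965) and PCP4 by -1.75 ± 0.40 (edgeR, adjusted p = 0.0998) on the log2 scale (SE). Of the 7 genes 0 were called there, against 0.444% of all tested genes. DESeq2 called 2 of them, RGS14 and PCP4, and 3.26% of all tested genes. In control ewes RGS14 differed by 2.36 ± 0.46 (edgeR, adjusted p = 0.0428) and was called, as were 1% of all tested genes. That call was kept in only 3 of the 12 fits that each left out a library, those without dorsal stress 1, ventral stress 1 or ventral control 1, and it was lost without the 4 lowest-scoring libraries (edgeR, adjusted p = 0.142). PCP4 differed by -1.64 ± 0.40 in control ewes (edgeR, adjusted p = 0.102) and PTPN5 by -0.53 ± 0.17 (edgeR, adjusted p = 0.255). DESeq2 called both (DESeq2, adjusted p = 0.00398 and 0.0482), and 4.09% of all tested genes. Dorsal and ventral libraries of RGS14 and of PCP4 did not overlap in either condition, and those of PTPN5 did not overlap in control ewes. Groups of 3 against 3 did not overlap in 13.7% of tested genes in stressed ewes and 11.7% in control ewes.

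Chronic stress was compared with control within each region. Of the 7 genes 0 were called in dorsal and 0 in ventral tissue, against 0% of all tested genes. Over all genes 152 in dorsal and 142 in ventral tissue had an unadjusted p under 0.05 with edgeR, 0.854% and 0.797% of those tested, and DESeq2 called 1 gene in each region. The 7 genes had an unadjusted p of 0.107 or more in every stress comparison. With the replicate number as a block 0 genes were called in either region, and the lowest unadjusted p of the 7 was 0.0234, for STARD5 in dorsal tissue (edgeR, adjusted p = 1.00). In that blocked fit 299 of 17806 tested genes in dorsal and 268 in ventral tissue had an unadjusted p under 0.05 with edgeR.

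STARD5 had the lowest difference of the set in both regions. It averaged 13.0 ± 3.66 CPM in dorsal stress and 21.7 ± 7.15 in dorsal control, and 12.3 ± 4.44 CPM in ventral stress and 18.5 ± 8.74 in ventral control (SD, n = 3 each). The fitted values were -0.73 ± 0.43 in dorsal and -0.59 ± 0.43 in ventral tissue on the log2 scale (SE), with 95% intervals of -1.68 to 0.21 and -1.53 to 0.35. Stress and control libraries overlapped in both regions for all 7 genes, where 5.13% of tested genes in dorsal and 2.86% in ventral tissue did not.

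PTPN5 averaged 81.8 ± 14.1 CPM in dorsal stress and 66.4 ± 5.48 in dorsal control, a difference of 0.30 ± 0.17 on the log2 scale (SE). In ventral tissue it averaged 98.6 ± 10.2 CPM under stress and 95.9 ± 8.39 in control, a difference of 0.04 ± 0.17. CACNG5 differed by 0.21 ± 0.52 in dorsal and 0.75 ± 0.52 in ventral tissue. RGS14 differed by -0.04 ± 0.44 in dorsal and 0.31 ± 0.44 in ventral tissue, and its 95% interval in dorsal tissue covers folds of 0.498 to 1.89. PCP4 differed by -0.22 ± 0.39 and -0.10 ± 0.39, and AMIGO2 by 0.06 ± 0.46 and 0.18 ± 0.46, in dorsal and ventral tissue in that order. MAP3K15 differed by 0.70 ± 1.41 and 0.62 ± 1.36. The difference between the stress effects of the regions was tested for each gene, and 0 of the 7 were called, against 0% of all tested genes, of which 46, or 0.258%, had an unadjusted p under 0.05 with edgeR and 0 were called by DESeq2.

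**Figure D3:**
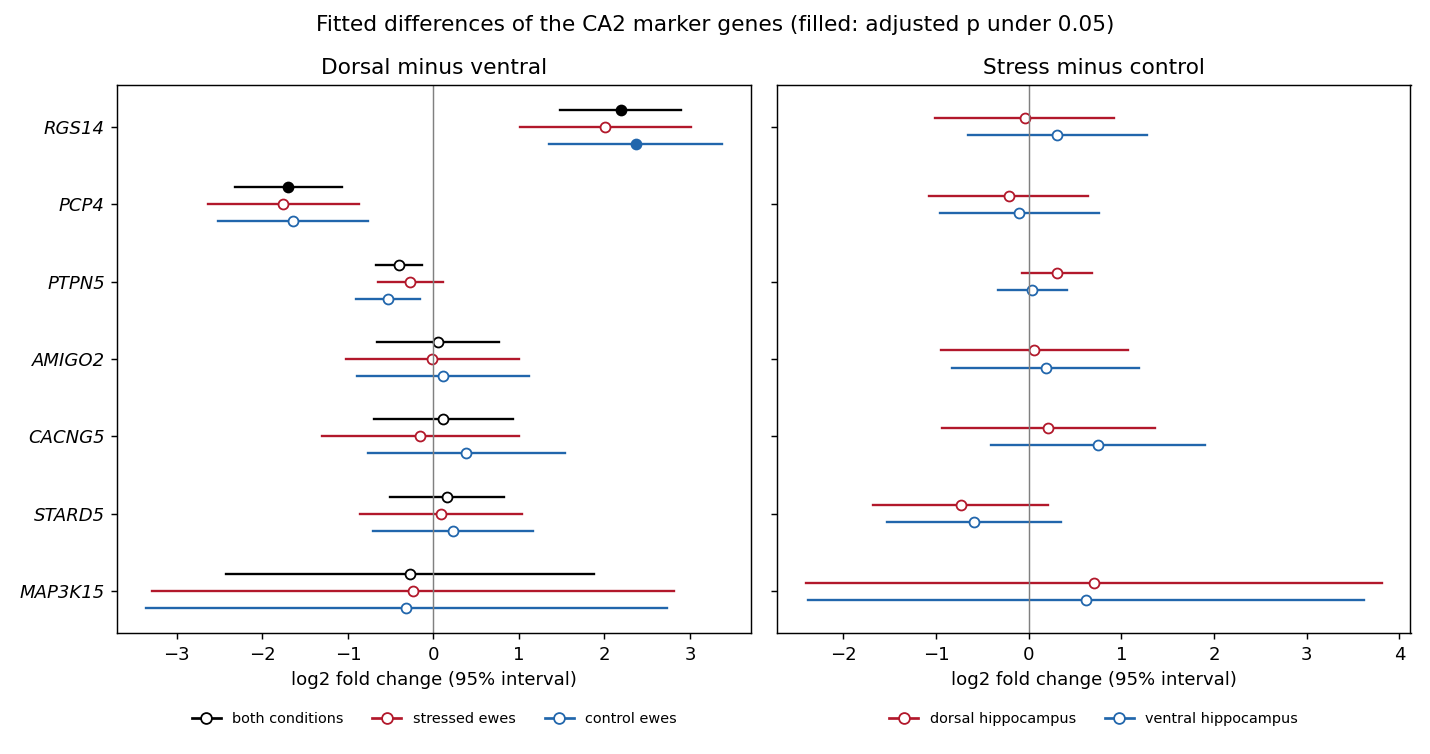
Fitted log2 fold changes of the 7 genes with 95% intervals, dorsal minus ventral on the left and stress minus control on the right. Filled points have an adjusted p under 0.05 with edgeR: RGS14 over both conditions and in control ewes, and PCP4 over both conditions. All stress intervals include 0.

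Within groups, 4 of the 7 markers fell into pairs that spread together. RGS14 and STARD5 were highest in library 1 of every group, with a correlation of their deviations from the group means of 0.92 over 12 libraries. AMIGO2 and CACNG5 were lowest in the 4 libraries at the low end of the within-group axis, with a correlation of 0.86. The score on that axis correlated with AMIGO2 at 0.95 and CACNG5 at 0.71, and with RGS14 at -0.82 and STARD5 at -0.89. Across all tested genes the median absolute correlation with the axis was 0.84, so that such values are common in these libraries. MAP3K15 correlated with the axis at 0.42. The correlations are descriptions over libraries that share pools, depth and the axis itself.

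**Figure D4:**
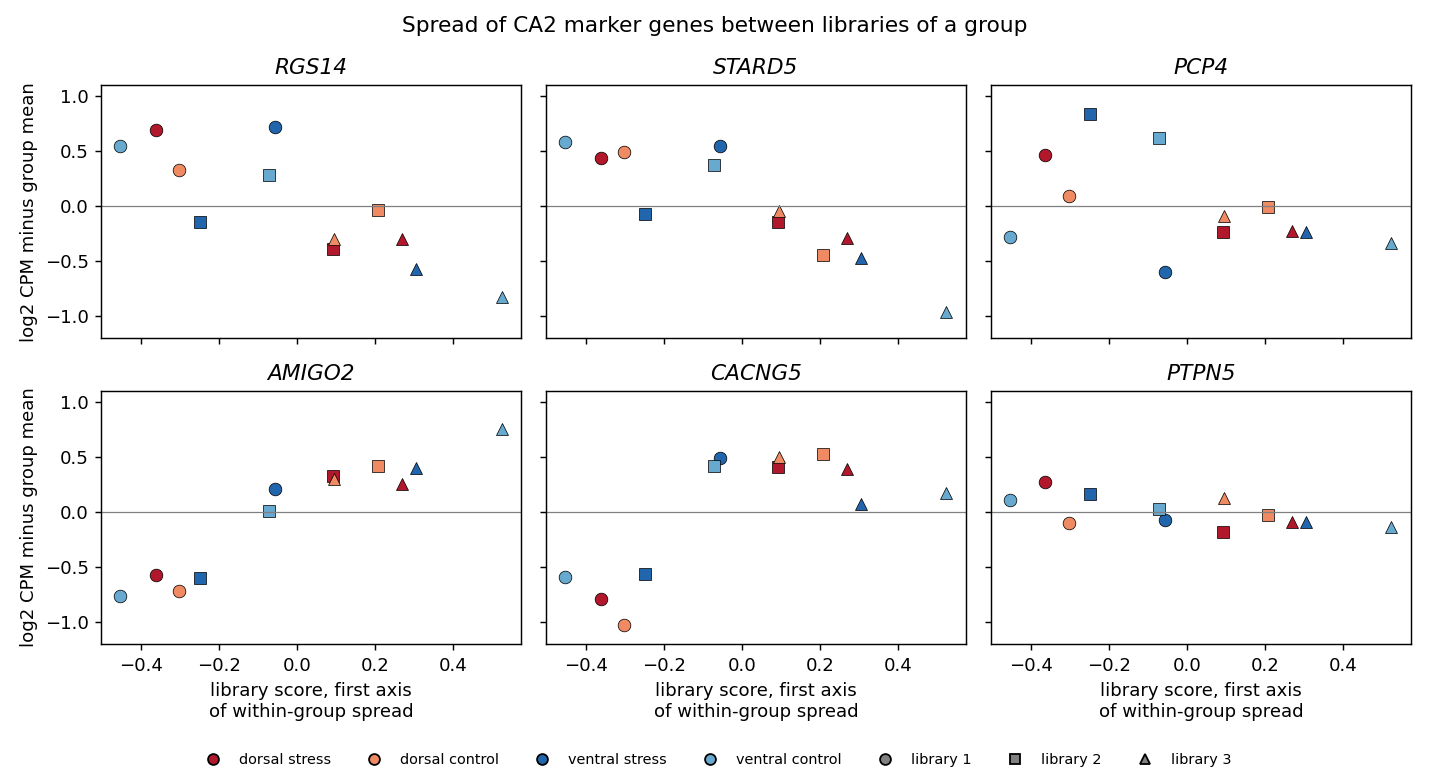
Deviation of log2 CPM from the group mean in each library, against the library's score on the first axis of within-group spread, for 6 of the genes. RGS14 and STARD5 sloped down along the axis, AMIGO2 and CACNG5 sloped up, and PCP4 and PTPN5 followed it less closely, with correlations of -0.44 and -0.63.

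The genes whose profile over the 12 libraries was most like that of RGS14 were CAMKK1, PLPPR2 and DBH, with Pearson correlations of log2 CPM of 0.987, 0.985 and 0.985 among 12617 genes. None was another member of the set: STARD5 ranked 2671st, CACNG5 6934th, AMIGO2 7724th, PTPN5 11406th and PCP4 12087th. MAP3K15, with a mean log2 CPM under 1, was not among the genes ranked. For PCP4 they were OSBPL10, TMEM163 and DCBLD1, at 0.974, 0.968 and 0.967, and PTPN5 ranked 482nd at 0.777. The difference between regions that the libraries share contributes to these values, and so does the spread within groups. As deviations from the group means, the correlations were 0.926, 0.949 and 0.919 for RGS14 and 0.902, 0.863 and 0.857 for PCP4, in the same order of genes.

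Genes next to the markers were looked up by order in RefSeq's annotation of ARS-UI_Ramb_v3.0, a sheep assembly, because the strand setting of the counts is not given and overlapping genes may share reads. The RGS14 neighbour LMAN2 averaged 91.9 CPM and differed between regions by 0.09 ± 0.34 on the log2 scale (SE, edgeR, adjusted p = 1.00). MAP3K15 overlaps PDHA1, which averaged 128.5 CPM and differed by -0.23 ± 0.12 (edgeR, adjusted p = 0.439). AMIGO2 overlaps PCED1B, at 4.56 CPM and -0.14 ± 0.25 (edgeR, adjusted p = 1.00). RGS14 itself overlaps LOC132659879, a long noncoding RNA that was not analysed here. Counts of RGS14, MAP3K15 and AMIGO2 are uncertain to that extent.

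A second list held 14 further genes tied to CA2 in rodents, of which 13 were tested. Between regions 3 were higher and 1 was lower in dorsal tissue, against 1.44% and 3.07% of all tested genes. The list's median log2 fold change was 0.15, against -0.02 over all genes. FGF5, a growth factor, averaged 3.06 ± 1.04 CPM in dorsal and 0.526 ± 0.233 CPM in ventral libraries (SD, n = 6 each), a difference of 2.55 ± 0.40 (edgeR, adjusted p = 0.00562). NR3C2, the mineralocorticoid receptor that binds cortisol with high affinity, averaged 87.4 ± 18.8 CPM in dorsal and 46.5 ± 10.7 CPM in ventral libraries, a difference of 0.91 ± 0.17 (edgeR, adjusted p = 0.0131). CCDC3 averaged 67.1 ± 7.61 CPM in dorsal and 36.6 ± 8.31 CPM in ventral libraries, a difference of 0.88 ± 0.16 (edgeR, adjusted p = 0.0113). ACAN, the aggrecan core of perineuronal nets, was lower, with 1.84 ± 0.43 CPM in dorsal and 4.39 ± 1.13 CPM in ventral libraries, a difference of -1.25 ± 0.26 (edgeR, adjusted p = 0.0218). The calls of NR3C2 and ACAN were lost without the 4 lowest-scoring libraries (edgeR, adjusted p = 0.0702 and 0.0561). NR3C2 was also not called with a choroid plexus covariate (edgeR, adjusted p = 0.0562), and ACAN was called in 5 of the 12 fits that each left out a library. AVPR1B, the vasopressin receptor of CA2 in mice, had 8 counts in all, in 1 ventral stress library, and was not tested. It is named after its values were seen.

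Partners and relatives of each marker were also counted between regions, where 1.44% of all tested genes were called as higher and 3.07% as lower. For PCP4, 1 of 8 calmodulin-linked genes was higher and 1 lower. GAP43, a calmodulin-binding growth cone protein, averaged 144.7 ± 27.5 CPM in dorsal and 623.3 ± 161.1 CPM in ventral libraries (SD, n = 6 each), a difference of -2.11 ± 0.21 (edgeR, adjusted p = 0.000539). CAMK2A, a calmodulin-dependent kinase of excitatory synapses, differed by 0.60 ± 0.13 (edgeR, adjusted p = 0.0265), and its call was lost without the 4 libraries (edgeR, adjusted p = 0.0812) and kept in 5 of the 12 fits that left out a library. PCP4L1, the closest relative of PCP4, had -0.57 ± 0.16 (edgeR, adjusted p = 0.0881).

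For RGS14, 0 of 10 G protein, Ras family and RGS genes were called. RGS12, which shares its domain plan, had -0.59 ± 0.45 and RGS10 had 0.28 ± 0.23 on the log2 scale (SE). For PTPN5, 1 of 9 was higher, PTK2B, a calcium-regulated tyrosine kinase that STEP dephosphorylates, at 0.67 ± 0.13 (edgeR, adjusted p = 0.0141), lost without the 4 libraries (edgeR, adjusted p = 0.0598). For CACNG5, 0 of 11 AMPA receptor subunits and auxiliary proteins were called, with GRIA1 at 0.73 ± 0.19 (edgeR, adjusted p = 0.0562) and CACNG8 at 0.82 ± 0.31 (edgeR, adjusted p = 0.234). For MAP3K15, 1 of 10 was higher, the stress kinase MAP2K4 at 0.48 ± 0.10 (edgeR, adjusted p = 0.0242), lost without the 4 libraries (edgeR, adjusted p = 0.0809), without a count filter (edgeR, adjusted p = 0.0599) and in all but 3 of the 12 fits that left out a library. For STARD5, 0 of 7 tested lipid transport genes were called, with the lysosomal cholesterol exporter NPC1 at 0.67 ± 0.19 (edgeR, adjusted p = 0.0723). For AMIGO2, 0 of 4 were called, with the potassium channel KCNB2 at -1.24 ± 0.33 (edgeR, adjusted p = 0.0653). Of these 8 lists 0 genes were called for stress in either region.

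Markers of other fields and of neighbouring tissues differed between the regions alongside RGS14 and PCP4. For these and the lists that follow, the shares over all tested genes were 3.07% called as lower and 1.44% as higher. Of the subiculum list 4 of 7 were lower in dorsal tissue, with summed levels of 43.1 to 67.6 CPM in dorsal stress, 34.7 to 57.6 in dorsal control, 129.0 to 234.0 in ventral stress and 142.1 to 281.0 in ventral control. The CA1, CA3 and dentate lists were mixed in sign. In that order 2, 3 and 4 tested genes had positive log2 fold changes, and 4, 3 and 4 negative ones. Of the CA1 list 2 of 6, of the CA3 list 1 of 6 and of the dentate list 3 of 8 tested genes were called as lower and 0 as higher. Several of these calls were lost when 1 library was left out: of the 12 fits that each left one out, CCN3 (CA1) was called in 7, KCNQ5 (CA3) in 3, and DSP, PDZD2 and IGFBP5 (dentate) in 10, 1 and 2. The symbol CCN3 stands on 2 rows of the count table, of which the first was used. Of the excitatory neuron list 2 of 7 were higher, CAMK2A and NEUROD2, the second of which was called in 2 of those 12 fits.

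Striatum and thalamus, where PCP4 and PTPN5 are also expressed, were read from their own lists. Of the striatum list 4 of 10 genes were lower in dorsal tissue and 1 was higher. DRD1, the D1 dopamine receptor, averaged 1.65 ± 0.52 CPM in dorsal and 19.3 ± 6.14 CPM in ventral libraries, and PENK, the enkephalin precursor, 3.65 ± 0.87 CPM in dorsal and 39.0 ± 12.3 CPM in ventral libraries (SD, n = 6 each). The summed striatum list was 137.7 to 202.9 CPM in dorsal stress, 137.0 to 184.7 in dorsal control, 167.8 to 204.5 in ventral stress and 166.7 to 214.4 in ventral control. Of the thalamus list 2 of 7 tested genes were lower, PRKCD and SLC17A6. SLC17A6 is also in the subiculum list and counts among the lower genes there, so these 2 lists are not independent. The sum of the thalamus list was 104.1 to 133.2 CPM in dorsal stress, 107.0 to 133.5 in dorsal control, 155.6 to 234.5 in ventral stress and 167.0 to 274.5 in ventral control. Of the neocortex list 2 of 9 were lower. FOXP2 of that list was called in 5 of the 12 fits, and SYNDIG1L, the striatum gene that was higher, in 3. The part of these tissues in the PCP4 and PTPN5 values was not tested.

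Choroid plexus genes ran the other way, with 3 of 9 tested genes higher and 1 lower in dorsal tissue. The sum of the list was 387.8 to 1008 CPM in dorsal stress, 691.5 to 2838 in dorsal control, 67.2 to 85.9 in ventral stress and 62.3 to 427.7 in ventral control. With a covariate made from the list's mean log2 CPM, RGS14 differed by 2.97 and PCP4 by -1.19 between regions. Both were called (edgeR, adjusted p = 0.00269 and 0.0341), in a fit that called 38.1% of all tested genes, against 4.51% without the covariate. That mean did not rank the libraries as the sum did: dorsal control 1 had the highest sum and, at 1.58, the lowest mean of its group. The regions overlapped on the mean, with 0.764 in dorsal stress 1 and 1.16 in ventral stress 3. The lowest mean of each group was in its library lowest on the within-group axis. The fit cannot tell choroid plexus content from that axis, and the part of that content in these calls was not tested. Of the meningeal fibroblast list 5 of 6 genes were lower in dorsal tissue. Among glial and vascular lists 1 of 10 oligodendrocyte genes was higher and 0 astrocyte, microglia or endothelial genes were called. Of the choroid plexus calls AQP1 was kept in 6 and SOSTDC1 in 3 of the 12 fits, and the oligodendrocyte gene MOBP in 5.

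**Figure D5:**
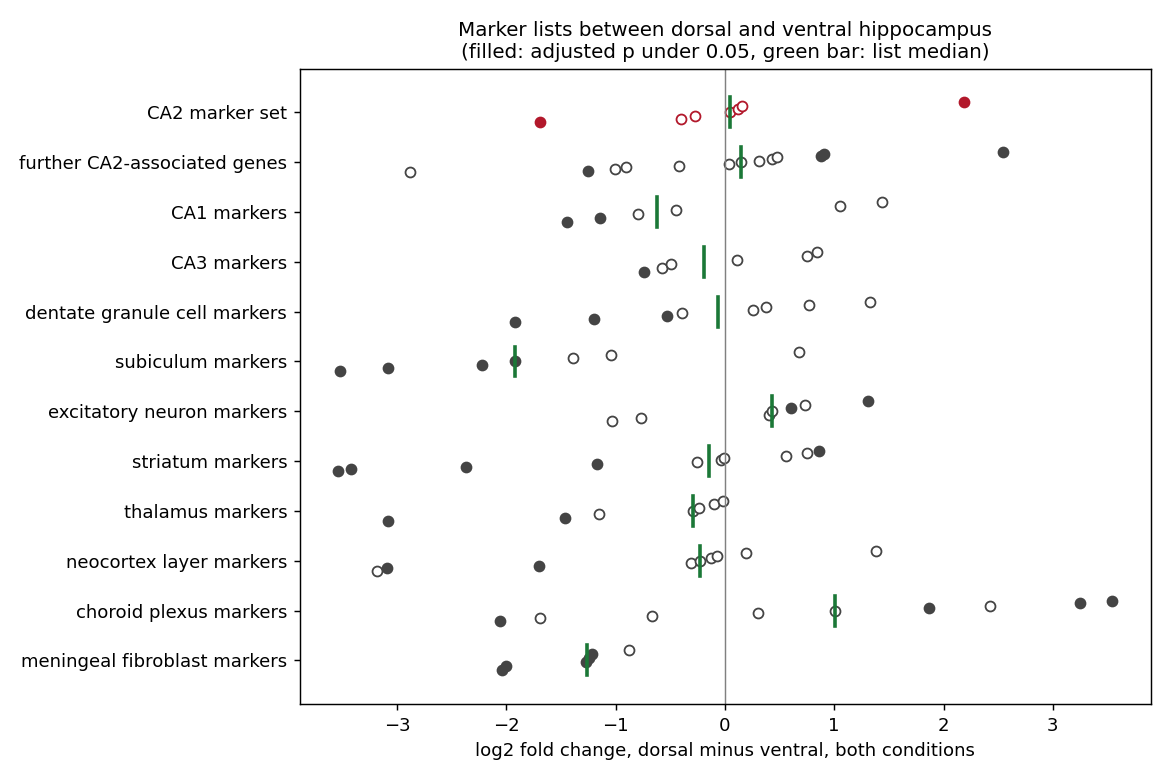
Log2 fold change, dorsal minus ventral over both conditions, for each tested gene of the CA2 set and of 11 other lists. Filled points have an adjusted p under 0.05 with edgeR and green bars are list medians. The CA2 set has its median at 0.05 with 1 called gene on each side, and the subiculum list has its median at -1.92.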

How the data were processed

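Per the labels' protocols, RNA was extracted with TriReagent, mixed in equal amounts from 2 ewes per library, and made into libraries with the TruSeq stranded mRNA kit. The authors deposited raw gene counts for 12 libraries, which were not normalized. The submitters' processing notes name featureCounts 2.0.0, the aligners TopHat2 2.1.1 with Bowtie2 2.3.5.1, SAMtools 1.9, FastQC and bcl2fastq 2.20. Genome build, annotation and strand setting: not given in the sources used here. Of 33609 genes 9337 had no count. Columns were matched to samples by their descriptions.

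The fit used edgeR 4.0.16 (R 4.3.3): filterByExpr by group, TMM, 1 mean for each of 4 groups, the robust quasi-likelihood F test, and Benjamini-Hochberg adjustment over the 17806 tested genes in each of 6 comparisons. The threshold for a call was 0.05. Each SE was obtained from the log2 fold change and the F statistic (the change over the root of F), and intervals are at 95%. CPM are scaled by TMM, and log2 CPM has a prior count of 2. Alternatives used RLE size factors, other filters, thinned counts, DESeq2 1.42.0, limma-voom with limma 3.58.1, replicate blocks, covariates and left-out libraries.

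Both regions come from the same ewes and pools average over animals, so p-values measure the spread between pools. Whether same-numbered pools of the regions hold the same ewes is not stated, and the fit has no replicate block. For stress against control, deviations of same-numbered libraries correlated at 0.71, 0.32 and 0.28 in dorsal and 0.24, 0.31 and 0.79 in ventral tissue, so the blocked result is given there too. No pair of libraries in a group agreed within sampling noise: the lowest chi-square per degree of freedom was 21.6.

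The 23 lists, the member set among them, were chosen with earlier results of these data known. Of 200 list symbols 194 were matched. Named are all members, from each list up to 4 genes with the smallest p between regions, and for RGS14 and PCP4 the 3 genes of highest correlation with a mean log2 CPM of at least 1. Not every gene that the rule allows is named. AVPR1B is outside the rule. Levels are compared within a gene only, since no transcript lengths were used.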

Additional observations from a re-analysis of the deposited data

How the results depend on the processing

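Between regions over both conditions, RGS14 (1.97 to 2.97 on the log2 scale) and PCP4 (-1.70 to -1.19) kept their direction and their call in every alternative run, and in all 12 fits that left out a library (RGS14 1.97 to 2.41, PCP4 -1.83 to -1.42). The number of all genes called between regions, 803, was 1558 with DESeq2, 1375 with the replicate block, 6783 with the choroid plexus covariate, 3761 with the first residual factor as covariate, 386 without the 4 lowest-scoring libraries, an alternative chosen after seeing the data, and 420 to 1091 with 1 library left out. In stressed ewes it was 79, against 580 with DESeq2, 29 with limma-voom, 314 with the replicate block, 348 and 1589 with the covariates in the same order, 0 without the 4 libraries and 1 to 159 with 1 left out. In control ewes it was 178, against 728 with DESeq2, 440 with the block, 5705 and 2003 with the covariates, 8 without the 4 libraries and 2 to 319 with 1 left out. For stress against control, DESeq2 called 1 gene in each region where edgeR called 0. Both covariates were built from the same counts, and the cause of these shifts was not tested.

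Of the 7 markers, those called in stressed ewes, 0, became 2 with DESeq2, 1 (RGS14) with the replicate block, 1 (RGS14) with the block by pair, 1 with the choroid plexus covariate and 2 with the residual factor. In control ewes the 1 called became 3 with DESeq2, 2 (PCP4 and RGS14) with the block, 3 with the residual factor, 0 without the 4 libraries and 0 to 1 with 1 library left out. PTPN5 over both conditions was called by DESeq2 and by edgeR with the residual factor (adjusted p = 0.0172 and 0.0023). Those fits called 8.75% and 21.1% of all tested genes. Without the 4 libraries, the regional calls of NEUROD2, KCNQ5, PDZD2, IGFBP5, SYNDIG1L, NXPH4, FOXP2, COL1A2 and SLC6A13, which count in the marker lists, were also lost. Between regions the replicate numbers were not taken as pairs, since deviations of same-numbered libraries correlated at 0.21, -0.23 and 0.76 for numbers 1 to 3 in stressed ewes and at 0.72, -0.12 and 0.37 in control ewes, and not every library correlated best with its own number. The block changed no other call of the 7 markers.

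Directions that turned belonged to genes that were not called. With the choroid plexus covariate the regional values over both conditions were -0.82 for AMIGO2, -0.77 for CACNG5, 0.86 for RGS12, -0.66 for GNAI3, -0.057 for AMIGO1, 1.17 for AMIGO3, 0.17 for MAPK3, -0.082 for MAPK14, -0.50 for WNK1, 0.70 for STARD10, 0.24 for WFS1, 0.011 for GJB6, 0.35 for CSF1R and 0.54 for C1QA. In control ewes it gave -1.09 for AMIGO2 and -0.81 for CACNG5, for stress in ventral tissue 0.013 for PCP4 and -0.025 for AMIGO2, and for the difference of stress effects 0.54 for AMIGO2 and 0.089 for CACNG5. MAP3K15 between regions was 0.0079 with the replicate block and 0.079 with the residual factor, in stressed ewes 0.071 and 0.16, and in control ewes 0.36 with limma-voom and 0.064 with the block by pair. Its difference of stress effects was -1.67 with limma-voom, -0.85 with the block by pair and -1.75 without the 4 libraries, and its dorsal stress value -1.68 without them. Thinned counts gave -0.011 for CACNG5 over both conditions and -0.020 for STARD5 in stressed ewes, where STARD5 was -0.23 without the 4 libraries. AMIGO2 in stressed ewes was 0.0027 with RLE and 0.0023 with DESeq2. The difference of stress effects of PCP4 was 0.35 without the 4 libraries.

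With 1 library left out, regional values over both conditions crossed 0 for AMIGO2 (-0.10 to 0.28), CACNG5 (-0.010 to 0.30), MAP3K15 (-1.15 to 0.59), STARD5 (-0.012 to 0.32), AMIGO3 (-0.61 to 0.26), ITGAM (-0.52 to 0.27), P2RY12 (-0.37 to 0.11), RAP2A (-0.44 to 0.020), STARD4 (-0.88 to 0.18) and TEK (-0.43 to 0.015). They crossed in control ewes for AMIGO2 (-0.19 to 0.58), MAP3K15 (-0.93 to 1.42) and STARD5 (-0.11 to 0.52), and in stressed ewes for AMIGO2 (-0.26 to 0.23), CACNG5 (-0.39 to 0.16), MAP3K15 (-1.99 to 0.36) and STARD5 (-0.17 to 0.41). Dorsal stress values crossed for AMIGO2 (-0.22 to 0.30), CACNG5 (-0.16 to 0.52), MAP3K15 (-1.06 to 1.29) and RGS14 (-0.48 to 0.15), and ventral ones for AMIGO2 (-0.12 to 0.65), PCP4 (-0.64 to 0.28), PTPN5 (-0.047 to 0.098) and RGS14 (-0.13 to 0.59). The difference of stress effects crossed for AMIGO2 (-0.59 to 0.18), MAP3K15 (-1.68 to 0.69), PCP4 (-0.50 to 0.42), RGS14 (-0.79 to 0.088) and STARD5 (-0.43 to 0.20). MAP3K15, at 0 to 23 counts a library, is limited by low counts and by the spread between pools.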
